A study of Mus musculus with 6 samples.

Results

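Genes of the translation machinery were examined in a list of ac4C pull-down summits: initiation factors, elongation factors, release and recycling factors, the poly(A)-binding protein gene Pabpc1, and the aminoacyl-tRNA synthetases. Members were found by gene symbol alone, as symbols that start with Eif or Eef and a digit, synthetase symbols such as Aars or Nars2, and Eprs, Farsa, Farsb, Etf1, Gspt1, Pabpc1 and Abce1. Of the 1485 genes in the list, 31 were members, and they held 38 of its 1876 summits. A RefSeq gene table of mouse assembly GRCm38.p6 had 112 protein-coding genes that fit the same symbols, so 81 family genes had no listed summit.

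The cells were 32D, a wild-type mouse line that the labels describe as bone marrow lymphoblastocytes. It depends on interleukin 3 (IL-3) and was grown with 10 ng/mL of it. N4-acetylcytidine (ac4C) is an acetylated cytidine that the enzyme Nat10 places in RNA. In acRIP-seq an antibody against ac4C pulls down RNA fragments, here of poly(A) RNA, which are then sequenced. The 6 libraries of the study formed 3 groups of 2, made with the ac4C antibody, with an IgG antibody, or from input RNA with no antibody. All values below come from 1 list that the authors called after merging both ac4C libraries. Replicates therefore cannot be compared, and no value has a replicate error. Among blood-cell markers, the myeloid genes had a summit on 3 of 8 (Spi1, Csf2rb and Fcer1g). Cebpa, Mpo, Elane, Kit and Itgam were unlisted. B and T cell genes had a summit on 0 of 6, beside 6.71% of all protein-coding genes. Such small counts do not settle the cell type, and a listing does not measure expression.

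Each summit has a fold enrichment, which is the authors' value and a ratio. It equals the fragments piled up at the summit plus 1, over a background of 1.11 fragments plus 1 that was the same for every entry. Fold therefore follows the number of pulled-down fragments and has no term for how abundant the mRNA is, nor for input or IgG, so a listing alone does not show ac4C. The interval given beside a fold is the exact Poisson 95% interval of its fragments; it covers counting error only, and not the spread between cultures. The depth of the libraries is unknown. An unlisted gene is not shown to lack ac4C, since only 5.42% of the peak numbers up to the highest in the list were present.

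Protein synthesis starts when eIF2 brings the initiator tRNA to the small ribosomal subunit, and eIF2B recharges eIF2 with GTP after each round. The eIF4 factors bind the mRNA cap, unwind the leader and join it to the ribosome through the large eIF3 complex. Elongation factors then deliver charged tRNAs and move the ribosome, release factors end the chain, and synthetases load each tRNA with its amino acid. Growth signals and stress regulate the machinery through eIF4E, eIF2 and eEF2.

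Genes of every class had a listed summit, and the tallest were on initiation factors. Eif4b, which encodes a cofactor of the eIF4A helicase, reached a fold of 67.9, and Eif3d, a cap-binding subunit gene of eIF3, reached 57.9. The alanyl-tRNA synthetase gene Aars followed with 42.7, then Eif1ad with 37.0 and the eIF3 genes Eif3b with 36.1, Eif3k with 32.8 and Eif3g with 28.0. At the low end Eif5 reached 4.75 and Eif4enif1 3.32. The highest fold of a gene thus differed 20.4 times between the ends of the order.

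Over the 31 genes the median of the highest fold was 10.4, with quartiles of 7.83 and 24.0, beside a median of 12.3 and quartiles of 7.12 and 21.4 over all 1485 listed genes. At or above the upper quartile of listed genes were 8 of the 31 members, or 25.8%, beside 25.1% of all listed genes. The share of members in the upper quartile was thus near that of the list. The order among them was coarse: in all 30 pairs of neighbours in the order the counting intervals overlapped. The interval of Eif4b, from 57.2 to 79.9, lay above those of 29 of the other 30 genes and overlapped that of Eif3d.

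**Figure D1:**
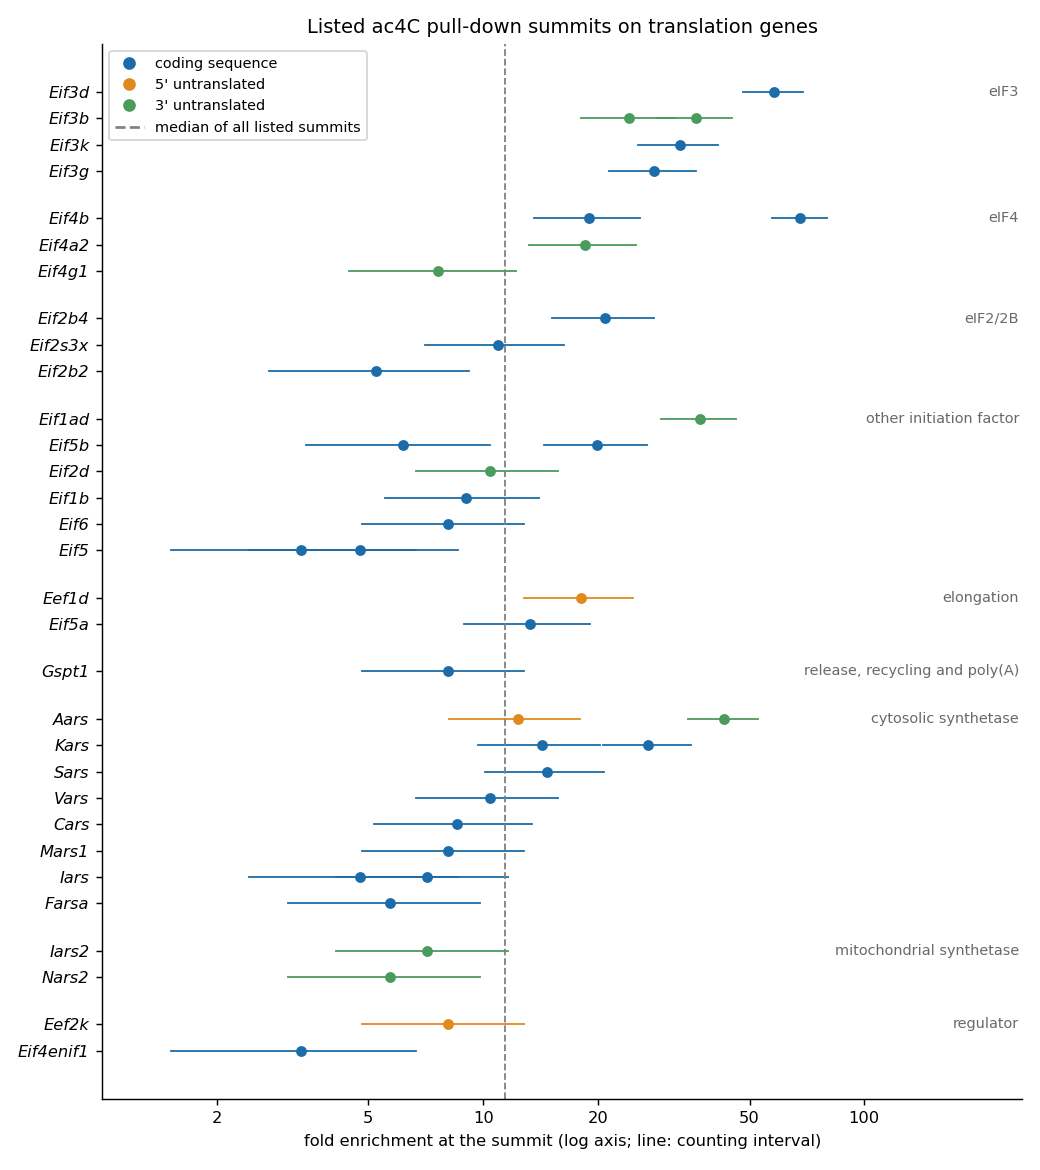
Fold enrichment (log axis) of each of the 38 listed summits on the 31 genes, by class; points are summits, coloured by region, lines are exact Poisson 95% intervals of the fragments at the summit, and the dashed line is the median of all listed summits, 11.4. All summits of the eIF3 genes lie to the right of the dashed line, and those of mitochondrial synthetases and regulators, apart from the upper ends of their intervals, to the left.

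Family genes were listed more often than protein-coding genes at large. A summit was listed for 31 of 112 family genes, or 27.7% (exact Clopper-Pearson 95% interval 19.6% to 36.9%), beside 6.71% of the 21900 protein-coding genes in the table. With a fold at or above the list's median summit, 14 family genes, or 12.5%, were listed, beside 3.65% of protein-coding genes. Many genes of the wider background may not be expressed in these cells, and expression was not measured, so the part of expression in this difference was not tested. By class the share was 28.6% for eIF3, 33.3% for eIF2 and eIF2B, 25.0% for eIF4, 25.0% for elongation factors and 40.0% for cytosolic synthetases. It was 60.0% for the other initiation factors, 11.8% for mitochondrial synthetases and 12.5% for regulators such as kinases and repressors. With 4 to 20 genes in a class the intervals were wide, and those of all 9 classes overlapped. The intervals of eIF4, elongation, termination, mitochondrial synthetases and regulators also included the 6.71% of protein-coding genes.

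**Figure D2:**
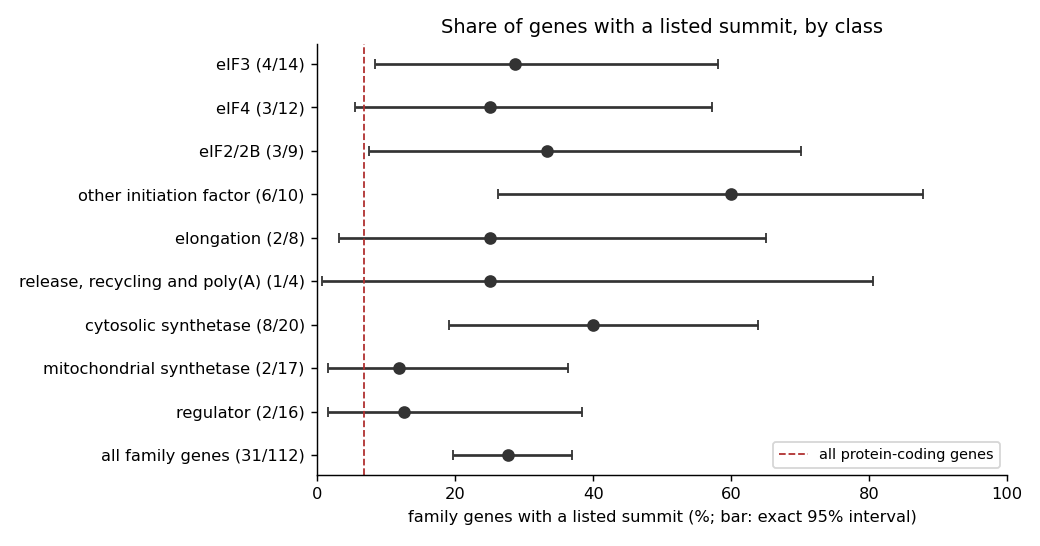
Share of family genes with a listed summit in each class (percent), with the count of listed genes over all genes of the class; bars are exact Clopper-Pearson 95% intervals, and the dashed line marks the 6.71% of all protein-coding genes. The intervals of the classes overlap, those of 5 of the 9 classes include the dashed line, and that of all 112 family genes, from 19.6% to 36.9%, lies above the dashed line.

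The eIF3 complex holds the small ribosomal subunit ready for mRNA. Of its genes 4 of 14 had a summit, or 28.6% beside 27.7% of all family genes, and the highest folds of all 4 lay in the upper quartile of listed genes. Eif3d (ENSMUSG00000016554) had its summit at nt 1226 of ENSMUST00000100484, in coding sequence, with 121 fragments and a fold of 57.9 (48.1 to 69.1). Eif3b, which encodes a scaffold subunit, had a pair of 3′ untranslated summits on ENSMUST00000100507, 118 nt apart, at nt 2675 with a fold of 36.1 (28.5 to 45.1) and at nt 2793 with 24.2 (18.1 to 31.8). Their intervals overlapped, and both belonged to the same numbered peak. Eif3k, a small subunit gene, had 32.8 (25.5 to 41.4) at nt 563 and Eif3g, the gene of an RNA-binding subunit, 28.0 (21.4 to 36.1) at nt 745, both in coding sequence. The lowest of the 4, Eif3g at 28.0, had an interval that overlapped those of Eif2b4, the tallest of the eIF2 and eIF2B genes, and Eef1d, the tallest elongation factor gene, while eIF4 genes, cytosolic synthetases and other initiation factors reached above it. No summit was listed for Eif3a, Eif3c, Eif3e, Eif3f, Eif3h, Eif3i, Eif3l, Eif3m or the near-identical pair Eif3j1 and Eif3j2.

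Of the eIF4 genes 3 of 12 were listed, with a median of 18.5 and a wide range. Eif4b (ENSMUSG00000058655) had the tallest summit of all members at nt 1482 of ENSMUST00000169681, in coding sequence, with 142 fragments and a fold of 67.9 (57.2 to 79.9). Of all listed genes, 98.0% had a lower highest fold. A second coding summit of Eif4b lay at nt 109 of another transcript, ENSMUST00000229400, with 39 fragments and a fold of 19.0 (13.6 to 25.8). The intervals of both did not overlap, with 3.64 times the fragments at the taller. Eif4a2, the gene of an eIF4A helicase, had a 3′ untranslated summit of 18.5 (13.2 to 25.2) at nt 1373, and the cap-complex scaffold gene Eif4g1 one of 7.59 (4.46 to 12.2) at nt 5322. The cap-binding protein genes Eif4e, Eif4e1b, Eif4e2 and Eif4e3 were unlisted, as were the helicase genes Eif4a1 and Eif4a3, the cofactor gene Eif4h, and Eif4g2 and Eif4g3. Eif4a1 and Eif4a2 are close paralogs, between which reads can be split.

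For eIF2 and its exchange factor eIF2B, 3 of 9 genes had a summit, all in coding sequence. Eif2b4, the eIF2B delta subunit gene, had 43 fragments and a fold of 20.9 (15.2 to 28.0) at nt 445. Eif2s3x, which encodes the GTP-binding subunit of eIF2, had 10.9 (7.02 to 16.3) at nt 111, and Eif2b2, the beta subunit gene of eIF2B, 5.22 (2.75 to 9.20) at nt 1009. Intervals of Eif2b4 and Eif2b2 did not overlap. Eif2s1, the gene of the subunit that stress kinases phosphorylate, was unlisted, as were Eif2s2, Eif2b1, Eif2b3, Eif2b5 and Eif2s3y. Eif2s3y is the Y-linked copy of Eif2s3x, so the reads at Eif2s3x are uncertain in origin.

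Of the other initiation factors 6 of 10 genes were listed, with a median of 9.73. With only summits at or above the list's median fold 2 of 10 were, and with core factors alone 5 of 9. The tallest was Eif1ad (ENSMUSG00000024841), placed in this class by its symbol and named for its eIF1A domain. It had 77 fragments and a fold of 37.0 (29.3 to 46.2) at nt 1204, in the 3′ untranslated region. No other gene of this class reached the upper quartile of listed genes. Its gene overlaps Banf1 in the gene table, and Banf1 had no listed summit. Eif5b, which joins the ribosomal subunits, had coding summits of 19.9 (14.4 to 26.9) at nt 1731 and 6.17 (3.42 to 10.4) at nt 2246 of the same transcript, 515 nt apart, with intervals that did not overlap. Eif2d, an initiator tRNA and recycling factor gene, had a 3′ untranslated summit of 10.4 (6.65 to 15.7) at nt 1976.

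Low coding summits lay on the remaining listed genes of this class. Eif1b, a paralog of the start-site selection factor gene Eif1, had 9.02 (5.54 to 14.0) at nt 180. Eif6, whose protein keeps the ribosomal subunits apart, had 8.07 (4.82 to 12.8) at nt 274. Eif5, which makes eIF2 hydrolyse its GTP, had 4.75 (2.43 to 8.58) and 3.32 (1.52 to 6.67) on different transcripts, from 9 and 6 fragments. Of these 3 genes the intervals overlapped. Eif1, Eif1a, Eif1ax and Eif2a had no listed summit.

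Elongation factors were represented by 2 of 8 genes, and the genes of eEF1A and eEF2 were not among them. Eef1d, a subunit gene of the exchange factor that recharges eEF1A, had a 5′ untranslated summit at nt 82 of ENSMUST00000109972, with 37 fragments and a fold of 18.0 (12.8 to 24.7). Eif5a, whose protein carries the modified lysine hypusine and helps the ribosome past difficult stretches, had a coding summit of 13.3 (8.92 to 19.1) at nt 400. Their intervals overlapped. No summit was listed for the tRNA carriers Eef1a1 and Eef1a2, the translocase gene Eef2, the exchange factor genes Eef1b2 and Eef1g, or Eif5a2. Reads of Eef1a1, Eef1b2 and Eef2 can be shared with pseudogenes or paralogs, and the sources used here do not say how such reads were counted.

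In the termination class 1 of 4 genes was listed. Gspt1, which encodes the GTPase release factor eRF3, had a coding summit at nt 402 with 16 fragments and a fold of 8.07 (4.82 to 12.8). Etf1, the partner release factor gene, Abce1, which recycles ribosomes, and Pabpc1 were unlisted.

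Cytosolic synthetases had a summit on 8 of 20 genes, with a median of 9.49 and folds up to 42.7. Aars (ENSMUSG00000031960) had summits at both ends of ENSMUST00000034441: 89 fragments and a fold of 42.7 (34.4 to 52.5) at nt 3293, in the 3′ untranslated region, and 25 fragments and 12.3 (8.15 to 18.0) at nt 376, which the authors placed in the 5′ untranslated region. Kars, the lysyl-tRNA synthetase gene, had coding summits of 27.1 (20.6 to 35.0) at nt 89 and 14.2 (9.69 to 20.2) at nt 1351, on different transcripts. In neither gene did the intervals of the pair overlap.

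The other 6 cytosolic synthetases were at or below 14.7, all in coding sequence. Sars, for serine, had 14.7 (10.1 to 20.8) at nt 227, and Vars, for valine, 10.4 (6.65 to 15.7) at nt 3465. Cars, for cysteine, had 8.54 (5.18 to 13.4) at nt 1643, and Mars1, for methionine, 8.07 (4.82 to 12.8) at nt 1711. Iars, for isoleucine, had 7.12 (4.11 to 11.6) at nt 857 and 4.75 (2.43 to 8.58) at nt 2007 on another transcript, and Farsa, a subunit gene of the phenylalanyl enzyme, 5.70 (3.08 to 9.82) at nt 1392. Neighbours in this order could not be separated at this depth, since their intervals overlapped, while those of Sars and Farsa, at its ends, did not. Dars, Eprs, Farsb, Gars, Hars, Lars, Nars, Qars, Rars, Tars, Wars and Yars had no listed summit.

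Of 17 genes classed as mitochondrial synthetases, which charge tRNAs inside the organelle, 2 were listed, both in the 3′ untranslated region and both low. Each gene was put in a single class, and Kars and Gars were counted as cytosolic only. Iars2 had 14 fragments and a fold of 7.12 (4.11 to 11.6) at nt 3282, and Nars2 11 fragments and 5.70 (3.08 to 9.82) at nt 2347. Protein genes of the mitochondrial ribosome, which uses these tRNAs, had 12 of 78 listed, or 15.4% (8.21% to 25.3%), beside 6.71% of protein-coding genes. Their median was 9.97, beside 12.3 over all listed genes. Unlisted genes of this class included Aars2, the alanyl enzyme gene, Lars2, for leucine, and Yars2, for tyrosine.

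Regulators that share the symbols were listed for 2 of 16 genes. Eef2k, the kinase gene that shuts off eEF2, had a 5′ untranslated summit of 8.07 (4.82 to 12.8) at nt 261. Eif4enif1, which encodes a carrier of eIF4E, had a coding summit of 3.32 (1.52 to 6.67) at nt 774, from 6 fragments, with a q-value of 0.00193 in the authors' deposited table, the highest among members together with Eif5. None of the 4 eIF2 kinase genes (Eif2ak1, Eif2ak2, Eif2ak3, Eif2ak4) and none of the 3 repressors that bind eIF4E (Eif4ebp1, Eif4ebp2, Eif4ebp3) had a listed summit. Also unlisted were the synthetase scaffold gene Eef1e1, the methyltransferase genes Eef1akmt1 to Eef1akmt4, Eef1aknmt and Eef2kmt, and a read-through gene and a helicase-like gene outside the classes, Eef1akmt4-ece2 and Eif4a3l1.

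Summits on these genes lay in coding sequence more often than in the list as a whole. Coding sequence held 26 of 38, or 68.4% (51.3% to 82.5%), beside 48.0% of all 1876 summits. The 3′ untranslated region held 9, or 23.7% (11.4% to 40.2%), beside 44.9%, and the 5′ untranslated region 3, or 7.89% (1.66% to 21.4%), beside 7.09%. The shares of the whole list lay outside the members' intervals for coding sequence and 3′ untranslated region, and inside for the 5′ untranslated region. These intervals treat summits as independent, while 7 genes gave a pair each, and how long each region is in these transcripts was not measured. By gene, 21 of 112, or 18.8%, had a coding summit, beside 3.45% of protein-coding genes.

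**Figure D3:**
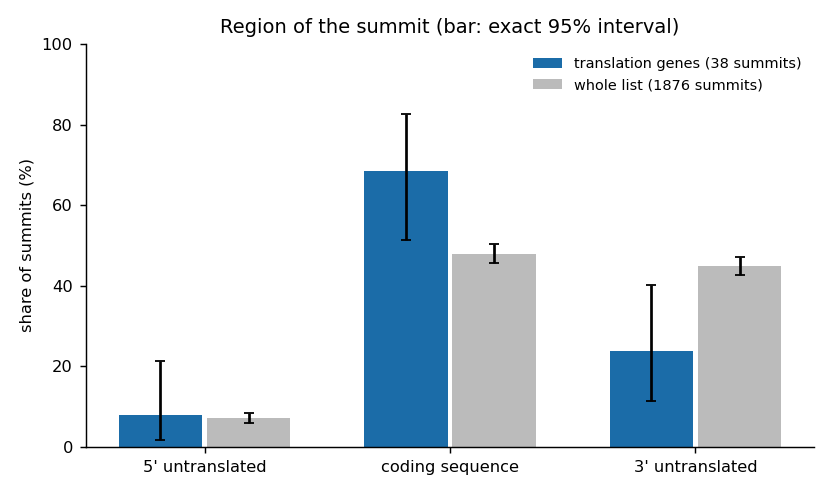
Share of summits (percent) in each transcript region for the 38 summits on translation genes and for all 1876 listed summits; bars carry exact Clopper-Pearson 95% intervals. Coding sequence held 68.4% of the summits on translation genes and 48.0% of all summits.

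The 3′ untranslated summits of members had a median fold of 18.5 (9 summits, from 5.70 to 42.7), coding summits 9.73 (26 summits, from 3.32 to 67.9) and 5′ untranslated summits 12.3 (3 summits, from 8.07 to 18.0). The ranges overlapped, and no 5′ untranslated summit of a member reached the upper quartile of listed genes. In the whole list the medians were 12.3, 10.4 and 13.8 in the same order of regions. Among the coding summits of members, 6 of 26, or 23.1%, lay within the first 300 nt of the transcript, beside 23.0% in the whole list. The 4 summits within the first 120 nt were those of Eef1d, Kars, Eif4b and Eif2s3x, with folds of 18.0, 27.1, 19.0 and 10.9.

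**Figure D4:**
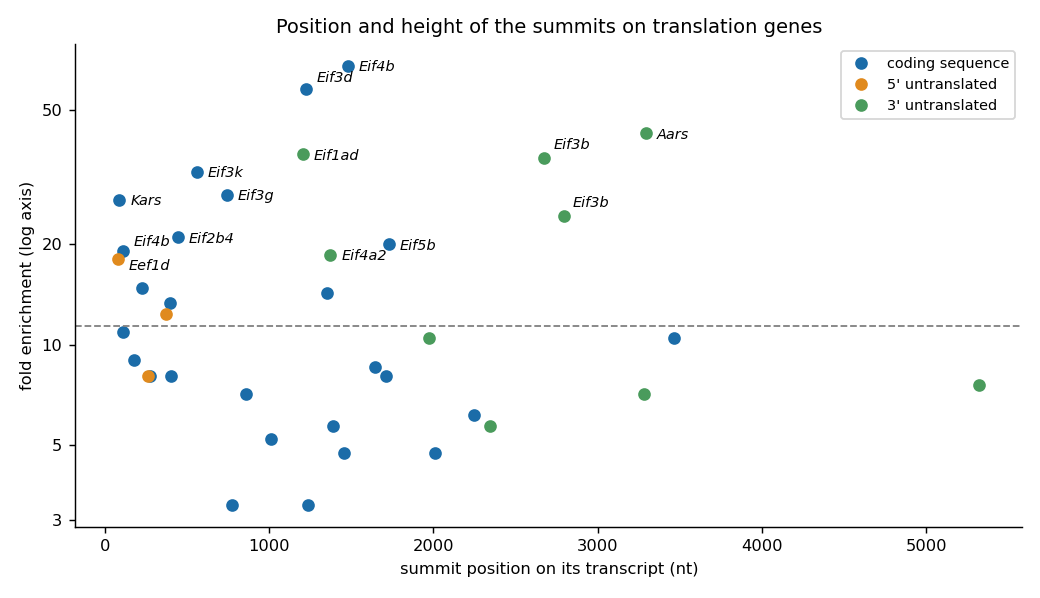
Position of each of the 38 summits on its transcript (nt, counted along the transcript the authors named) against fold enrichment (log axis), coloured by region; genes with a fold of 18.0 or more are named and the dashed line is the median of all listed summits, 11.4. Tall summits occur from nt 82 (Eef1d) to nt 3293 (Aars).

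The tallest members lay in peaks that the caller had split into several summits. Of the 38 summits 16, or 42.1%, belonged to such peaks, beside 26.5% in the whole list. The 8 members with the highest folds, from Eif4b to Kars, all did. Median folds of members were 25.6 in split peaks and 7.83 in the others, and in the whole list 22.8 and 9.49. The letters of the 15 split peaks on members imply at least 27 summits, of which 16 were listed; that on Eif1ad was the fifth of its peak.

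Most members had 1 listed summit: 24 genes had 1 and 7 had 2, with summits on different transcripts in 4 of the 7 (Eif4b, Kars, Iars and Eif5). In these 4 genes the summits may be the same site on different isoforms, which was not checked. In Aars, Eif3b and Eif5b both summits lay on the same transcript, 2917, 118 and 515 nt apart. Of the 31 genes, 11 overlap another protein-coding gene in the gene table and 5 overlap a small nucleolar RNA gene, among them Eif4a2, Eif4g1 and Eif5. For 2 of these 31, the overlapping gene was listed too. Mars1 overlaps Ddit3, a stress-induced transcription factor gene with coding summits of 23.3 and 18.5 on different transcripts, which may be the same site. Eif5b overlaps the translesion DNA synthesis gene Rev1, with a coding summit of 6.65. Overlap was taken over whole gene spans, introns included, and whether a summit lies in the shared stretch was not examined. The sources used here also do not say whether reads were counted by strand. The reads of a summit in a shared stretch would therefore be uncertain in origin.

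Around the core factors, 37 related genes without a matching symbol were also looked up. A summit was listed for 12 of them, or 32.4% (18.0% to 49.8%), with a median highest fold of 8.54. The share was near the 27.7% of family genes, beside 6.71% of all protein-coding genes. Aimp1, a scaffold gene of the complex that holds several synthetases, had the tallest at 29.0 in coding sequence. Ddit3, which the eIF2 stress response turns on, had 23.3, and the helicase gene Ddx3x 17.1. Gfm1, a mitochondrial elongation factor gene, had 9.97, and Larp1, which represses mRNAs of the translation machinery, 9.49. Pabpc4, a paralog of Pabpc1, had 4 coding summits from 5.70 to 8.54. Not all of these lay on the same transcript, so some may be the same site on different isoforms, which was not checked. The Pabpc1-binding regulator genes Paip2, Paip1 and Paip2b, all listed, had 7.12, 6.65 and 4.75. Folds were 8.54 on the mitochondrial release factor gene Mtrf1l, 7.12 on the ribosome rescue gene Pelo and 6.17 on the mitochondrial elongation factor gene Tufm. The transcription factor gene Atf4 was unlisted, as were both subunit genes of the eIF2 phosphatase, Ppp1r15a and Ppp1r15b, and the genes looked up for making hypusine (Dhps and Dohh) and diphthamide (Dph1, Dph2 and Dph5). The other unlisted genes were Aimp2, Gspt2, Hbs1l, Mcts1, Denr, Dhx29, Pdcd4, Mknk1, Mknk2, Gcn1, Atf5, Tsfm, Gfm2, Mtif2, Mtif3, Mtrf1 and Mrrf.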

How the data were processed

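Poly(A) RNA of 32D cells was profiled by acRIP-seq in 6 libraries. Build GRCm39 and the tools MACS2, cutadapt and Bowtie2 stand in the submitters' processing notes, without versions. Per the file headers, the deposited values of each summit are its fold, which is a ratio, and its p-value and q-value as −log10, with its position on an Ensembl transcript and its region. Peak names read as 1 call by the authors on the merged ac4C libraries. Which control the call used and how the list was filtered are not given in the sources used here, so the planned comparison of ac4C with input and IgG was not run.

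Fragments at a summit were recovered from the fold, the background being the value that makes all of them whole; the deposited −log10 p-values then followed from the Poisson tail with a largest deviation of 0.000488. A gene with several summits took its highest fold. Family genes came from the RefSeq table of GRCm38.p6, used for names, biotypes and overlaps only; all 31 listed members matched. Every member with a listed summit was named. Shares carry exact Clopper-Pearson 95% intervals, which treat genes or summits as independent and were used for description only. No test was run, since 1 pooled list has no replicates. Members and gene lists were chosen with earlier results of these data known; the blood-cell markers, overlaps, split peaks and subgroups were examined after the values were seen. Python 3.11.15, pandas 2.3.3 and SciPy 1.17.1 were used.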

Additional observations from a re-analysis of the deposited data

How the results depend on the processing

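No paired analysis was possible because both ac4C libraries were merged before the peak call; leaving out a replicate was not run for the same reason. Library depth is unknown, and members' summits held 6 to 142 fragments (median 21.5), so low summits cannot be ordered. With only summits at or above the list's median fold, listed genes went by construction from 31 to 14 of 112, or 12.5% beside 3.65% of protein-coding genes, to 1 for eIF2 and eIF2B, 2 for other initiation factors, 3 for cytosolic synthetases and 0 for termination, mitochondrial synthetases and regulators, and the median fold to 27.5. Class medians then were 20.9 for eIF2 and eIF2B, 43.2 for eIF4, 28.5 for other initiation factors and 27.1 for cytosolic synthetases, and the 3 classes at 0 had none. With only coding summits the counts were 1 for eIF4, 1 for elongation factors, 1 for regulators and 0 for mitochondrial synthetases. Counts for core factors alone (26 of 75 genes, or 34.7%), or without near-identical copies (30 of 108, chosen after seeing the data), stayed within 1.5 times. Medians by mean fold or over all summits, and region shares by strongest summit or with equal folds counted once, stayed within the intervals of their main values.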

Other observations

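Subgroups known from textbooks, chosen after the values were seen, gave these values, and no difference between them was tested. Beside their counts, 27.7% of all family genes and 6.71% of all protein-coding genes were listed. Within eIF3, the module of the b, g and i subunits had 2 of 3 genes listed, Eif3b at 36.1 and Eif3g at 28.0. The core of 8 subunits had 1, Eif3k at 32.8. Of the cap complex eIF4F, taken here as Eif4e, Eif4g1 and Eif4a1 only, Eif4g1 was listed, at 7.59. Outside that set, the Eif4a1 paralog Eif4a2 was listed at 18.5, and Eif4g3 was unlisted. The multisynthetase complex, which holds synthetases and their scaffolds together, had 4 of 11 genes listed: Aimp1 at 29.0, Kars at 27.1, Mars1 at 8.07 and Iars at 7.12.

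Synthetases fall into 2 structural classes with unrelated catalytic folds. Of the class I cytosolic enzymes 4 of 9 genes were listed, with highest folds from 7.12 to 10.4 (Cars, Iars, Mars1 and Vars). Of the class II enzymes 4 of 10 were listed, with folds from 5.70 to 42.7 (Aars, Kars, Sars and Farsa). Over all cytosolic synthetases the listed share was 40.0%. The ranges overlapped through Farsa, and the interval of Sars (10.1 to 20.8) overlapped those of all listed class I genes. Only the intervals of Aars and Kars lay above them. Eprs, which joins an enzyme of each class, was counted in neither.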
